A study of Mus musculus with 8 samples.

Results

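RNA levels of Pparg, its partner receptor Rxra and 8 genes of lipid handling were described in mouse peritoneal macrophages. The 10 genes were taken by symbol from a table of 55801 genes, and each symbol matched 1 row. They are Pparg and Rxra (receptors), Cd36, Fabp4 and Fabp5 (fatty acid uptake and binding), Lpl and Angptl4 (lipolysis of lipoproteins), Plin2 (lipid droplets), and Cpt1a and Pdk4 (fuel choice in mitochondria). Of the 10 genes, 9 reached a mean of 1 TPM over the samples and were tested, as did 12189 of the 55801 genes in the table, and Pdk4 stayed below that level. The cells came from the peritoneal cavity of male C57BL/6 mice of 6 to 8 weeks that had been injected with thioglycollate, and there were 4 groups of 2 samples. NC cells received vehicle (DMSO), LPS cells received lipopolysaccharide at 100 ng/ml for 4 h, C498 cells received the compound C498 at 15 μM, and C498+LPS cells received C498 for 0.5 h and then the same LPS challenge. No group was labelled with an altered genotype, and the thioglycollate elicitation was shared by all of them. The sources used here do not say whether the 2 samples of a group came from separate mice or cultures, so the p-values measure the spread between these samples, which may be technical.

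PPARγ, the protein of Pparg, is a nuclear receptor that is activated by fatty acids and their derivatives. It binds DNA as a heterodimer with a retinoid X receptor such as RXRα, and the sites it prefers are built from copies of the hexamer AGGTCA. In adipocytes it is a master regulator of fat storage, and in macrophages it is known for control of fatty acid uptake and lipid storage and for repression of inflammatory genes. Apart from Rxra, the other genes of the 10 are textbook targets of PPARs in some tissue, and several also answer to PPARα or PPARδ.

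Levels are given as TPM, a unit that corrects for the length of a gene and for the size of its library, so that levels of different genes can be compared. The number of reads behind a value is unknown. A change is the difference of log2(TPM + 1) between groups, tested with limma over all 12189 genes, and a gene passed when its Benjamini-Hochberg adjusted p was at most 0.05. Genes that passed with a change of at least 2-fold are called DEGs, and fold values in the text are ratios of mean TPM. Between 17528 and 18975 genes were above 0 in a sample, and the correlation of the 2 replicates of a group lay between 0.962 and 0.981. Relative to NC, the median of all tested genes was shifted by -0.17 (log2) in the LPS samples, a shift that centring each sample on its median gene removed.

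RefSeq promoters (GRCm38.p6) were on hand for 6 of the 10 genes (Pparg, Rxra, Cd36, Plin2, Cpt1a and Pdk4), with 9 start sites in all. Fabp4, Fabp5, Lpl and Angptl4 had no entry in the table. The sequences of the 4 genes that fell with LPS and had an entry are shown, as the 250 bases before 1 start site each (1 of 3 for Pparg and 1 of 2 for Rxra), 5′ to 3′ on the strand of the gene, with the hexamer AGGTCA or its reverse complement TGACCT in capitals. The window of Pparg is chr6:115360894-115361143 (plus strand), that of Rxra chr2:27709042-27709291 (plus strand), that of Plin2 chr4:86670060-86670309 (minus strand) and that of Cpt1a chr19:3323051-3323300 (plus strand).
Pparg: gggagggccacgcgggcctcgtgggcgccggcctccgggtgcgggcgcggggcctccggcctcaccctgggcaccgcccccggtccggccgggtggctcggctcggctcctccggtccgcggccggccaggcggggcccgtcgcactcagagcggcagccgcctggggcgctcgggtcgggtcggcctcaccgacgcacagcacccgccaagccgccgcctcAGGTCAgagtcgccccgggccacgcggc
Rxra: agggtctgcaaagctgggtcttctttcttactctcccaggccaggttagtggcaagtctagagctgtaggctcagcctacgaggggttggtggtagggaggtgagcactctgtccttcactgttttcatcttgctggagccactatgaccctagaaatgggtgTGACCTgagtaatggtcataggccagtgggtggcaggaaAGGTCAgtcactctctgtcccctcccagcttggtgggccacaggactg
Plin2: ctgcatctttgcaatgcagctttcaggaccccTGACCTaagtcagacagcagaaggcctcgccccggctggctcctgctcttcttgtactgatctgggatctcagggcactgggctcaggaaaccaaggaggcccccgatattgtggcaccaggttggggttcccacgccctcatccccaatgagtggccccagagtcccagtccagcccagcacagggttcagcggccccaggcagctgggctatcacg
Cpt1a: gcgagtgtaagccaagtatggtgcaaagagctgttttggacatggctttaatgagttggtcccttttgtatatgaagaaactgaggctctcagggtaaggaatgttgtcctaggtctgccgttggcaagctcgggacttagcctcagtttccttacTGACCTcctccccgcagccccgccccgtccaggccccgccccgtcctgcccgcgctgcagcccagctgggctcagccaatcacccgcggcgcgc
The hexamer began 28 bases before the start in Pparg, 94 bases before it in Cpt1a and 218 bases before it in Plin2, and the Rxra window held it at 87 and at 48 bases before the start. On either strand, it was present in 6 of the 9 promoters, against 14.0% of 32851 RefSeq promoters of the same length. The promoters with it belonged to Pparg (2 of its 3 start sites), Rxra (1 of its 2 start sites, the other of which, chr2:27676951-27677200, held none), Plin2, Cpt1a and Cd36. The 2 hexamers spaced by 1 base (AGGTCANAGGTCA), which contain the single one, were found in 11 promoters (0.0335%) and in none of the 9. For Pparg and Rxra, the window shown is one that held the hexamer. The Cd36 promoter, which also held it, is not shown. A match is only a description of the letters in the window.

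The mean levels of the 10 genes ranged over several orders of magnitude. Fabp5 was highest, with a mean of 3857 TPM over the 8 samples, above 99.8% of the tested genes. Plin2 (684 TPM), Lpl (596 TPM) and Cd36 (515 TPM) followed, and their ranges over the samples overlapped, so their order was within the spread. Fabp4 had a mean of 247 TPM, with a highest sample that reached the lowest of Cd36, Cpt1a 27.6, Rxra 23.9, Pparg 16.2 and Angptl4 7.73 TPM. The ranges of Cpt1a, Rxra, Pparg and Angptl4 overlapped in turn, although Rxra was above Pparg in each of the 8 samples. The highest value of Pdk4 was 0.17 TPM. In sum, the 10 genes held between 0.44% and 0.784% of all TPM, of which Fabp5 alone took 60.9% to 71.9%.

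**Figure D1:**
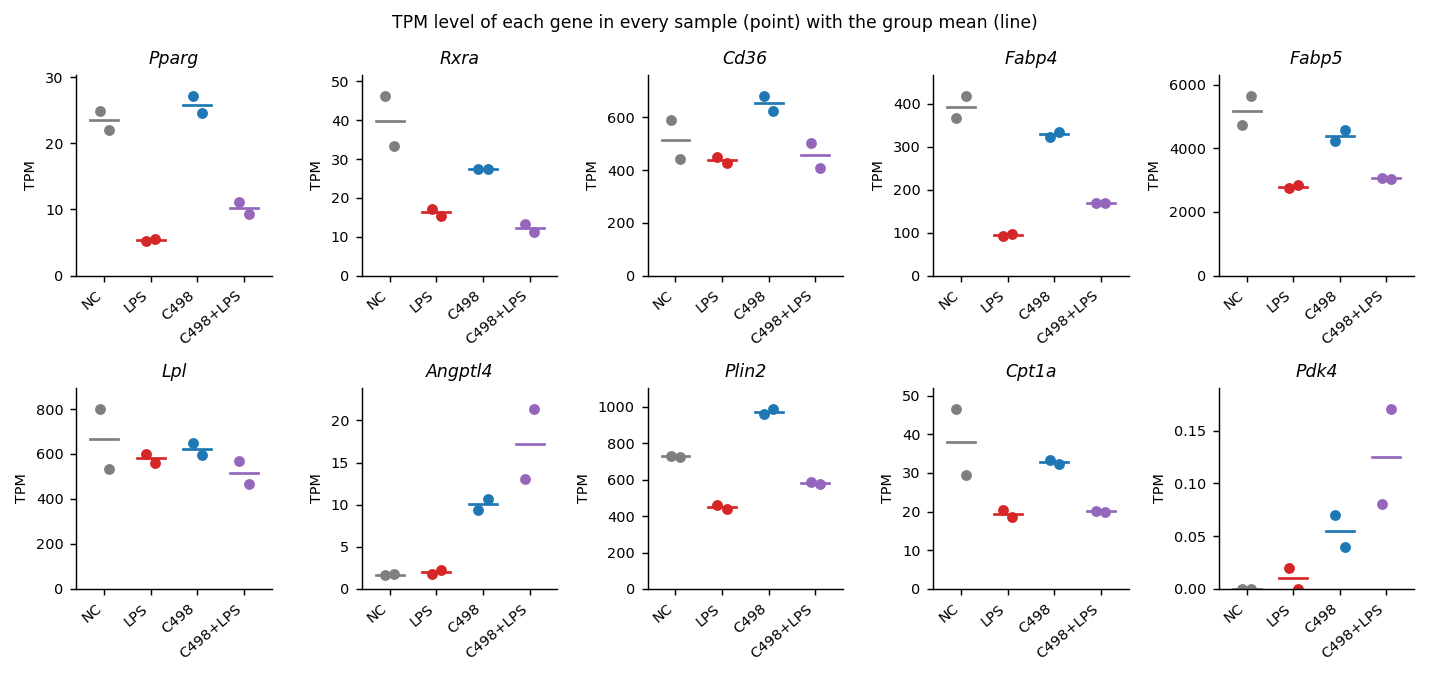
TPM level (y axis, linear from 0) of each of the 10 genes in the 2 samples of every group (points), with the group mean as a line. Pparg is between 22.0 and 24.95 TPM in NC and between 5.23 and 5.50 TPM in LPS, while Angptl4 is at 2.22 TPM or less in NC and LPS and at 9.37 TPM or more in both groups with C498.

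Pparg (ENSMUSG00000000440, chr6:115360951-115490399, GRCm38) was measured at 24.95 and 22.0 TPM in NC and at 5.23 and 5.50 TPM in LPS. The C498 samples had 27.14 and 24.51 TPM, and the C498+LPS samples 11.11 and 9.24 TPM. Both LPS samples were thus the lowest of the series, the C498+LPS samples lay between them and the unstimulated cells, and NC and C498 overlapped. LPS lowered Pparg by 4.38-fold (change -1.94, SE 0.149, adjusted p = 0.0001647), and it was a DEG. In the presence of C498 the LPS-treated cells were 2.54-fold below C498 alone (change -1.27, SE 0.149, adjusted p = 0.002393), again a DEG. With LPS present, Pparg was 1.90-fold higher in C498+LPS than in LPS (change 0.81, SE 0.149, adjusted p = 0.01215), in a comparison that shares the LPS samples with the first. That last call was lost when any of 3 samples was left out, namely LPS replicate 1, LPS replicate 2 or C498+LPS replicate 1, and its adjusted p ranged from 0.009363 to 0.08737 over 16 alternatives. C498 alone gave 25.8 TPM against 23.5 TPM in NC, and the change of 0.13 did not pass (95% interval -0.22 to 0.48, adjusted p = 0.5761).

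Rxra (ENSMUSG00000015846, chr2:27676440-27762957), which encodes the obligate partner, was measured at 46.2 and 33.36 TPM in NC and at 17.1 and 15.4 TPM in LPS. It was at 27.51 and 27.32 TPM in C498 and at 13.31 and 11.31 TPM in C498+LPS. The 4 groups did not overlap, and their order differed from that of Pparg, with C498 below NC and C498+LPS below LPS. The fall with LPS was 2.45-fold (change -1.22, SE 0.175, adjusted p = 0.002558), and that with LPS in the presence of C498 was 2.23-fold (change -1.10, SE 0.175, adjusted p = 0.008193). Both made Rxra a DEG, but the second was lost without C498 replicate 1, C498 replicate 2 or C498+LPS replicate 2, with an adjusted p between 0.003163 and 0.07496 over the alternatives. Neither effect of C498 passed. For C498 vs NC the change was -0.50 (95% interval -0.91 to -0.09, adjusted p = 0.09684), and for C498+LPS vs LPS it was -0.38 (95% interval -0.79 to 0.03, adjusted p = 0.1947). Centring each sample on its median gene brought both past the threshold, with changes of -0.63 (adjusted p = 0.01248) and -0.45 (adjusted p = 0.03166). When 1 sample was left out, the change in C498 vs NC ranged from -0.73 to -0.27. Over all alternatives the adjusted p ranged from 0.01248 to 0.3038 for C498 vs NC and from 0.03166 to 0.5483 for C498+LPS vs LPS.

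The ratio of the 2 receptor RNAs therefore differed between groups. It was 1.85 and 1.52 in NC, 3.27 and 2.80 in LPS, 1.01 and 1.11 in C498, and 1.20 and 1.22 in C498+LPS. Every LPS sample was above every other sample, and the samples with C498, with or without LPS, were the lowest. With 2 samples in each group, an exact two-sided permutation test of such a ratio cannot give a p below 0.333.

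**Figure D2:**
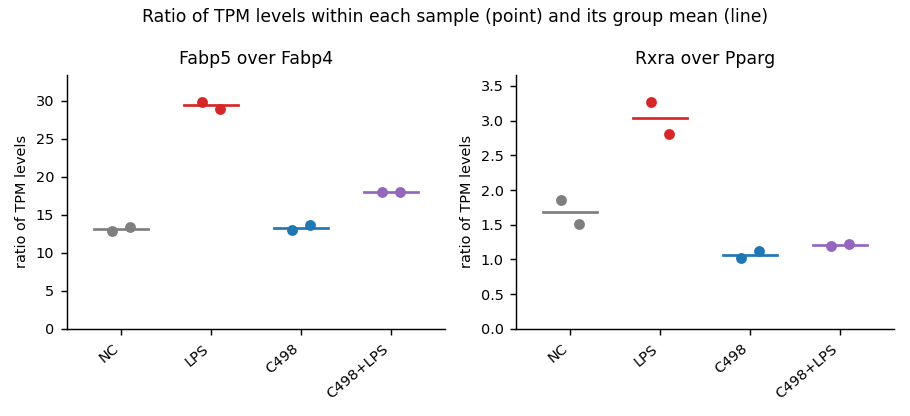
Ratio of TPM levels within each sample (points, y axis linear from 0) and its group mean (line), for Fabp5 over Fabp4 and for Rxra over Pparg. Both ratios are highest in the LPS samples, and Fabp5 over Fabp4 in C498+LPS (18.0 and 18.1) lies between LPS (29.0 and 29.9) and the groups without LPS (12.9 to 13.7).

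Fabp4 (ENSMUSG00000062515, chr3:10204088-10208576), the fatty acid-binding protein of adipocytes and macrophages, was at 368 and 418 TPM in NC and at 92.03 and 97.98 TPM in LPS. The C498 samples had 324 and 335 TPM, and the C498+LPS samples 169.7 and 169.0 TPM. None of the 4 groups overlapped, and their order was NC, C498, C498+LPS and LPS from high to low. Fabp4 fell 4.14-fold with LPS (change -2.04, SE 0.0914, adjusted p = 1.705e-05) and 1.94-fold with LPS in the presence of C498 (change -0.95, SE 0.0914, adjusted p = 0.001069). It was 1.78-fold higher in C498+LPS than in LPS (change 0.83, SE 0.0914, adjusted p = 0.001896), a call kept under all 16 alternatives. In C498 vs NC the change of -0.25 did not pass (95% interval -0.47 to -0.04, adjusted p = 0.1074).

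Fabp5 (ENSMUSG00000027533, chr3:10012548-10016607), the epidermal fatty acid-binding protein, lies on the same chromosome, 187 kb from Fabp4, with 4 protein-coding genes between. Pmp2 and Fabp9, 2 family members in that interval, were at 0.04 TPM or less, and Fabp12, Fabp2 and Fabp6 were listed at 0 in all samples. Fabp5 levels were 4730 and 5638 TPM in NC, 2750 and 2839 TPM in LPS, 4220 and 4569 TPM in C498, and 3067 and 3042 TPM in C498+LPS. All samples with LPS were below all samples without it. The fall with LPS was 1.85-fold (change -0.89, SE 0.102, adjusted p = 0.001071), and with LPS in the presence of C498 it was 1.44-fold (change -0.52, SE 0.102, adjusted p = 0.01669). The latter was lost in 7 of 16 alternatives, among them centring on the median gene (change -0.31, adjusted p = 0.3806) and leaving out LPS replicate 1 or any of the C498 and C498+LPS samples, with an adjusted p between 0.002809 and 0.3806. C498+LPS vs LPS gave a change of 0.13 (95% interval -0.11 to 0.37, adjusted p = 0.4531), and C498 vs NC one of -0.23 (95% interval -0.47 to 0.01, adjusted p = 0.166). Fabp5 has 5 processed copies in the annotation with an identity of at least 90% over at least 300 bases, and their summed level was at most 4.58 TPM, on average 0.0396% of that of Fabp5.

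Both genes were reduced by LPS, but not by the same factor. The ratio of Fabp5 to Fabp4 was 12.9 and 13.5 in NC, 29.9 and 29.0 in LPS, 13.0 and 13.7 in C498, and 18.1 and 18.0 in C498+LPS. Replicates differed by less than the groups with LPS did from the others, while NC and C498 overlapped.

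Cd36 (ENSMUSG00000002944, chr5:17781690-17888801), the scavenger receptor that takes up oxidized LDL and long-chain fatty acids, was at 589 and 443 TPM in NC and at 449 and 427 TPM in LPS. It was at 681 and 625 TPM in C498 and at 501 and 409.6 TPM in C498+LPS. The C498 samples were the highest of the series, and the other 3 groups overlapped. Cd36 passed in none of the comparisons as fitted here, although some alternatives called it. The change was -0.22 with LPS (95% interval -0.58 to 0.14, adjusted p = 0.3231), 0.35 with C498 (95% interval -0.01 to 0.71, adjusted p = 0.1662), and 0.05 in C498+LPS vs LPS (95% interval -0.31 to 0.41, adjusted p = 0.8719). In C498+LPS vs C498 it was -0.52 (95% interval -0.89 to -0.16, adjusted p = 0.06047). This last change passed in 4 of 16 alternatives, with an adjusted p between 0.01408 and 0.2745, and C498 vs NC passed in 2 of 16, with an adjusted p between 0.03622 and 0.5237.

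Lpl (ENSMUSG00000015568, chr8:68880491-68907448), the lipase that releases fatty acids from triglyceride-rich lipoproteins, was at 798 and 532 TPM in NC, a wider gap than in the other groups. The LPS samples had 601 and 561 TPM, the C498 samples 647 and 596 TPM, and the C498+LPS samples 567 and 465 TPM. NC spanned the LPS and C498 samples, and no comparison passed. The change with LPS was -0.17 (95% interval -0.61 to 0.28, adjusted p = 0.559) and turned to 0.13 without NC replicate 1. In C498 vs NC it was -0.07 (95% interval -0.51 to 0.38, adjusted p = 0.8341), in C498+LPS vs LPS -0.18 (95% interval -0.62 to 0.27, adjusted p = 0.5852), and in C498+LPS vs C498 -0.27 (95% interval -0.72 to 0.17, adjusted p = 0.3663).

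Angptl4 (ENSMUSG00000002289, chr17:33773750-33781830) encodes a secreted inhibitor of lipoprotein lipase that is induced by fasting, hypoxia and PPAR ligands. It was measured at 1.70 and 1.72 TPM in NC, at 1.79 and 2.22 TPM in LPS, at 9.37 and 10.67 TPM in C498 and at 13.07 and 21.31 TPM in C498+LPS. Every sample with C498 was above every sample without it, and the C498+LPS samples were the highest. C498 raised Angptl4 5.86-fold over NC (change 2.02, SE 0.245, adjusted p = 0.002981), and 8.57-fold over LPS in stimulated cells (change 2.56, SE 0.245, adjusted p = 0.001257). It was the only one of the 9 tested members that was a DEG in either comparison, where 5.64% and 5.39% of all genes were DEGs in that direction, and both calls were kept under all 16 alternatives. LPS itself gave a change of 0.15 (95% interval -0.43 to 0.72, adjusted p = 0.701). In C498+LPS vs C498 the change of 0.69 did not pass (95% interval 0.11 to 1.26, adjusted p = 0.1017).

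Markers of other cells moved with the same contrast. The summed level of 6 fibroblast markers was 150.3 to 192 TPM in NC, 176 to 200 TPM in LPS, 633 to 750 TPM in C498 and 618 to 911 TPM in C498+LPS. Of its 5 tested markers, 5 rose in C498 vs NC and 4 in C498+LPS vs LPS (9.29% and 9.08% of all tested genes), led by Col1a1 and Dcn with changes of 2.04 and 2.13. The summed level of 6 mesothelial markers was 5.03 to 6.50 TPM in NC, 5.46 to 6.51 TPM in LPS, 17.4 to 24.4 TPM in C498 and 17.8 to 29.4 TPM in C498+LPS. Of 5 tested mesothelial markers, 2 rose in C498 vs NC and 3 in C498+LPS vs LPS, against the same shares of all genes. Neutrophil markers went the other way, with 2 of 3 tested lower in C498 vs NC and 1 in C498+LPS vs LPS (6.19% and 7.7% of all tested genes). The sum of 7 macrophage markers was 19847 to 20355 TPM in NC, 16586 to 17222 TPM in LPS, 15252 to 15412 TPM in C498 and 10626 to 12411 TPM in C498+LPS. Most of that sum was Lyz2, with a mean of 15986 TPM in NC and 11497 TPM in C498, whereas Cd68 was at 2913 and 2669 TPM in NC and at 2802 and 2877 TPM in C498. Of the 7 macrophage markers, 2 fell in C498 vs NC (Fcgr1 and Lyz2), 2 in LPS vs NC, 3 in C498+LPS vs C498 and 4 in C498+LPS vs LPS, where 6.19%, 19.8%, 11.7% and 7.7% of all tested genes fell. The part of these shifts in the levels of Angptl4 and of the other genes was not tested, and in bulk samples fewer cells of a type cannot be told apart from less RNA per cell.

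**Figure D3:**
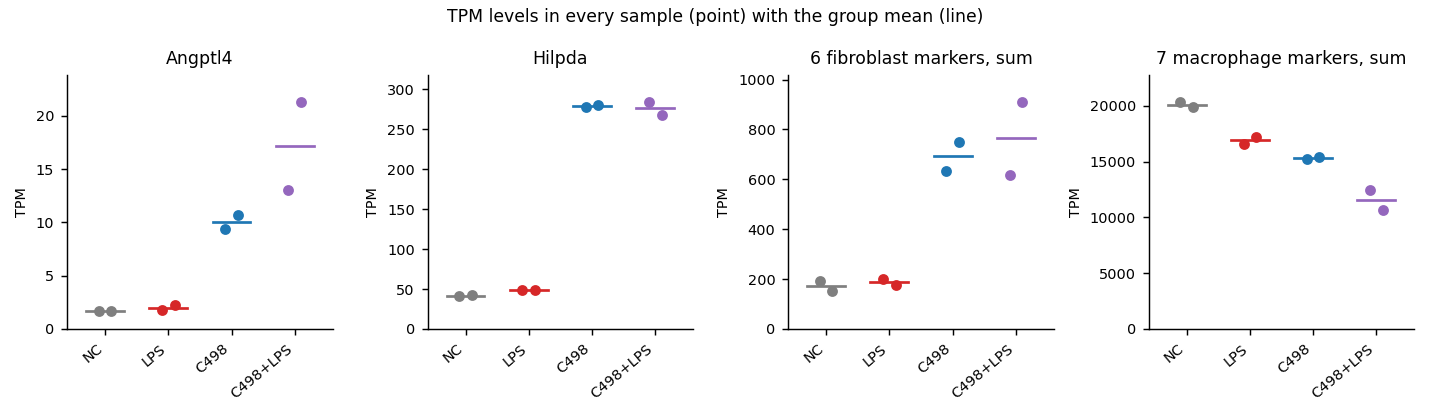
TPM levels (y axes linear from 0) of Angptl4, of Hilpda, of the sum of 6 fibroblast markers and of the sum of 7 macrophage markers in every sample (points), with the group mean as a line. Angptl4, Hilpda and the fibroblast sum are higher in all 4 samples with C498 than in all 4 without it, and the macrophage sum is lowest in C498+LPS (10626 and 12411 TPM).

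Plin2 (ENSMUSG00000028494, chr4:86648386-86670060), the protein that coats lipid droplets in most cells other than adipocytes, was at 732 and 725 TPM in NC and at 463 and 440.2 TPM in LPS. The C498 samples had 960.2 and 987 TPM, and the C498+LPS samples 588 and 575 TPM. The 4 groups did not overlap, with C498 the highest and LPS the lowest. LPS lowered it 1.61-fold (change -0.69, SE 0.0722, adjusted p = 0.0006965) and, in the presence of C498, 1.67-fold (change -0.74, SE 0.0722, adjusted p = 0.001124). C498 raised it 1.34-fold over NC (change 0.42, SE 0.0722, adjusted p = 0.01146) and 1.29-fold over LPS (change 0.37, SE 0.0722, adjusted p = 0.01525). Both rises were lost with samples centred on the median gene (changes 0.30 and 0.29, adjusted p = 0.1452 and 0.1642) and without either C498 sample or without any 1 of the LPS and C498+LPS samples, respectively. Over the alternatives the adjusted p ranged from 0.006742 to 0.1452 for the first and from 0.00882 to 0.1642 for the second.

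Cpt1a (ENSMUSG00000024900, chr19:3322334-3385733), which admits long-chain fatty acids to mitochondria for oxidation, was at 46.45 and 29.43 TPM in NC and at 20.34 and 18.52 TPM in LPS. It was at 33.35 and 32.32 TPM in C498 and at 20.23 and 19.85 TPM in C498+LPS. All samples with LPS were below all samples without it, while C498 lay within the range of NC. The fall with LPS was 1.95-fold (change -0.90, SE 0.200, adjusted p = 0.01491), and it was lost without LPS replicate 1 or LPS replicate 2, with an adjusted p between 0.001786 and 0.09335 over the alternatives. Its size depended on the NC samples, with a change of -0.58 when NC replicate 1 was left out and of -1.22 when NC replicate 2 was. In C498+LPS vs C498 the change of -0.69 missed the threshold (95% interval -1.16 to -0.21, adjusted p = 0.05928) and passed in 6 of 16 alternatives. The changes with C498 were -0.17 over NC (95% interval -0.64 to 0.30, adjusted p = 0.6011) and 0.04 over LPS (95% interval -0.43 to 0.51, adjusted p = 0.921).

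Pdk4 (ENSMUSG00000019577, chr6:5483351-5496309), the kinase that shuts off pyruvate dehydrogenase when fat is burned, was listed at 0 in both NC samples and in 1 LPS sample. The other LPS sample had 0.02 TPM, the C498 samples 0.07 and 0.04 TPM, and the C498+LPS samples 0.08 and 0.17 TPM. The values are too low for a fold or a test.

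Counted together, 6 of the 9 tested genes fell with LPS (Fabp4, Pparg, Rxra, Cpt1a, Fabp5 and Plin2) and 0 rose, where 19.8% of all tested genes fell and 9.84% rose. DEGs were 3 of the 9, against 6.68% of all genes. Their median change was -0.89, compared with -0.17 over all tested genes. With C498 present, 5 fell with LPS (Pparg, Rxra, Fabp4, Plin2 and Fabp5), where the background was 11.7%, and 2 of those were DEGs (3.13% of all genes). The median change of the members there was -0.69, compared with -0.18 over all tested genes. C498 vs NC gave 2 higher members (Angptl4 and Plin2; background 9.29%) and 0 lower (6.19%). C498+LPS vs LPS gave 4 higher (Angptl4, Fabp4, Pparg and Plin2; background 9.08%) and 0 lower (7.7%). The median changes of the members in these last comparisons were -0.07 and 0.13, against 0.01 and 0.01 over all genes.

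**Figure D4:**
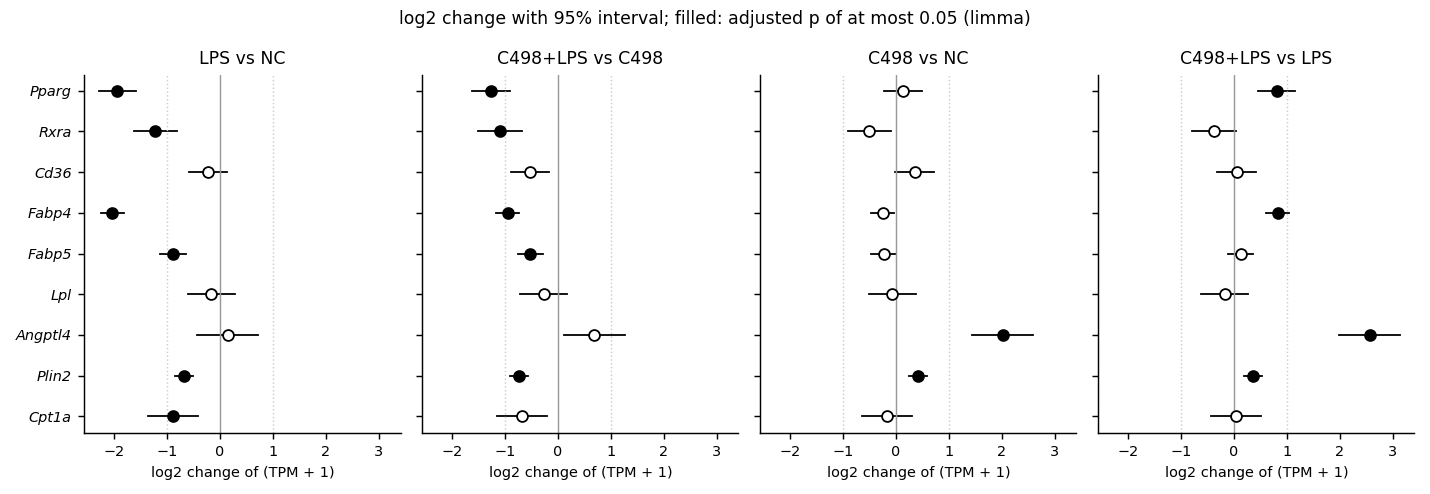
Change of log2(TPM + 1) with its 95% interval (x axis) for the 9 tested genes (y axis) in 4 comparisons, where filled points passed (limma, adjusted p of at most 0.05) and dotted lines mark a 2-fold change. In LPS vs NC the 6 filled points lie between -2.04 and -0.69, and in the comparisons of C498 the point farthest to the right is Angptl4 (2.02 and 2.56).

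Whether the LPS effect itself differed with and without C498 was tested as an interaction. For Fabp4 the log2 effect of LPS was -2.04 without and -0.95 with C498, and the difference of 1.08 passed (SE 0.129, adjusted p = 0.02518). Across all genes 0.492% passed this test, 0.0738% with a positive and 0.418% with a negative difference. The call passed in 6 of 15 alternatives and was lost without any 1 of the LPS, C498 and C498+LPS samples, with an adjusted p between 0.01611 and 0.1565, while the difference itself stayed between 0.99 and 1.17. For Pparg the difference was 0.67 (95% interval 0.18 to 1.17, adjusted p = 0.3116), so that a smaller effect of LPS in the presence of C498 was not shown for it. For Fabp5 it was 0.36 (95% interval 0.02 to 0.70, adjusted p = 0.4243), and for Plin2 -0.05 (95% interval -0.29 to 0.19, adjusted p = 0.8818). The other 5 tested members did not pass either, with differences between -0.30 (Cd36) and 0.54 (Angptl4).

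The genes whose pattern over the 8 samples was most like that of Pparg were C2cd2l, Flvcr1 and Irf2bpl. Likeness was the root mean square distance of log2(TPM + 1) centred on each gene's own mean, and 11892 genes with a symbol were ranked. C2cd2l had a distance of 0.105, with 31.6 and 22.7 TPM in NC, 5.88 and 5.97 TPM in LPS, 31.5 and 24.6 TPM in C498 and 11.1 and 10.4 TPM in C498+LPS. The distance of Flvcr1, a transporter of heme and choline, was 0.143 and that of Irf2bpl 0.158. Among the members, Fabp4 was closest at rank 9 (0.188), followed at a distance by Plin2 (rank 504), Cpt1a (678), Rxra (765) and Fabp5 (831), and Angptl4 was at rank 11190.

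Of 65 further genes of these pathways in 6 lists, 52 were tested. With LPS, 22 fell (42.3%, against 19.8% of all genes) and 5 rose (9.62%, against 9.84%). In mitochondrial fatty acid oxidation, 6 of 13 tested genes fell and 0 rose, and of those 6 the thiolase Acaa2 (-0.86), the proton carrier Ucp2 (-0.85) and the medium-chain dehydrogenase Acadm (-0.81) changed most. Among lipid droplet and lipolysis genes 5 of 9 fell, led by Lipa, the lysosomal acid lipase (-1.03), Plin3 (-1.01) and Mgll (-0.84). Dgat2, an enzyme of triglyceride synthesis, rose (1.15), from a low mean of 0.37 TPM in NC to 2.035 TPM in LPS. In the list of pyruvate dehydrogenase kinases and phosphatases, which also holds subunits of the enzyme, 3 of 7 tested genes fell, Pdk2 (-2.12) and Pdp1 (-1.11) among them. Pdk2 was low, with a mean of 6.09 TPM in NC and 0.62 TPM in LPS. Receptors and cofactors fell in 3 of 9 cases, among them the coactivator Ppargc1b (-1.11) and Rxrb (-0.61). Ppargc1b was low as well, with a mean of 2.09 TPM in NC and 0.395 TPM in LPS. Of the genes that handle lipoprotein lipase, 2 of 4 fell (Sdc1 and Lmf1, by 0.71 and 0.52).

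Fatty acid uptake, binding and activation was split, with 4 of 10 higher and 3 lower. Fabp3, the heart-type fatty acid-binding protein, was at 61.66 and 73.81 TPM in NC and at 339.9 and 346 TPM in LPS, and rose while Fabp4 and Fabp5 fell (change 2.33, adjusted p = 2.747e-05). The oxidized LDL receptor Olr1 (2.04) and the acyl-CoA synthetase Acsl1 (1.66) rose as well, and the transporter Slc27a1 fell by 1.09. With C498 present, 13 of the 52 fell with LPS (25.0%, against 11.7%) and 2 rose (3.85%, against 4.51%), Olr1 and Fabp3 (2.25 and 2.08).

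C498 moved fewer of these genes. In C498 vs NC 6 rose (11.5%, against 9.29%) and 5 fell (9.62%, against 6.19%), and in C498+LPS vs LPS 5 rose (9.62%, against 9.08%) and 5 fell (9.62%, against 7.7%). Hilpda, a lipid droplet protein that inhibits triglyceride lipolysis, was at 41.68 and 41.94 TPM in NC and at 278 and 281 TPM in C498 (change 2.71, adjusted p = 1.085e-05). It was at 48.28 and 48.69 TPM in LPS and at 285 and 268 TPM in C498+LPS (change 2.49, adjusted p = 5.65e-05). The synthetase Acsl3 rose in both comparisons (1.04 and 1.39), as did Angptl2 (1.10 and 1.70) and the lipoprotein receptor Vldlr (1.04 and 1.44). Vldlr was near the floor without C498, with means of 0.495 TPM in NC and 0.295 TPM in LPS. Its means were 2.055 TPM in C498 and 2.505 TPM in C498+LPS. At such levels, the 1 TPM added before the logarithm makes the change smaller than the ratio of means. Pnpla2, the triglyceride lipase that Hilpda inhibits, rose in C498 vs NC (change 0.45, adjusted p = 0.03842), as did Sdc1 (0.37). Cpt1c was higher in C498+LPS than in LPS (1.49), with low means of 2.745 and 0.3 TPM, respectively. Acsl1 was lower in C498+LPS than in LPS by 1.54, and Slc27a1 was lower with C498 in both comparisons (by 0.79 and 0.87). So were the synthetase Acsl5 (by 0.41 and 0.78) and Lipe, the hormone-sensitive lipase (by 0.54 and 0.76). Fabp7 and Ucp2 were lower in C498 than in NC (by 0.95 and 0.69), and Fabp3, added here after its values were seen, was lower in C498+LPS than in LPS by 0.68. None of the 52 genes passed the interaction test with limma at an adjusted p of at most 0.05.

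**Figure D5:**
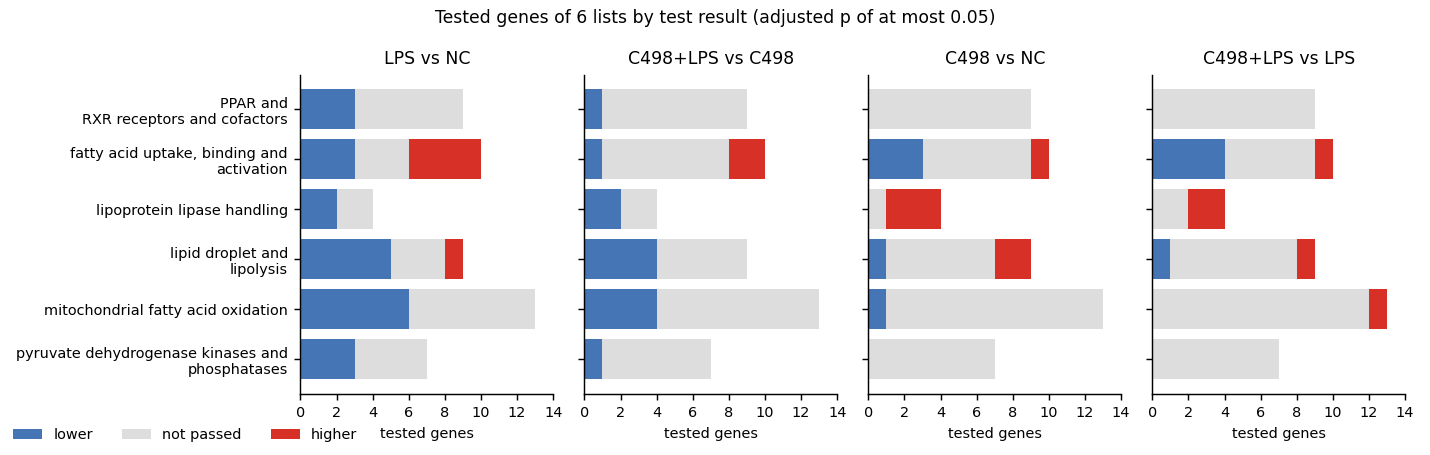
Number of tested genes (x axis) in each of 6 pathway lists (y axis) that were lower (blue), did not pass (grey) or were higher (red) in 4 comparisons (limma, adjusted p of at most 0.05). Mitochondrial fatty acid oxidation has 6 lower genes of 13 in LPS vs NC and 1 in C498 vs NC.

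All 7 macrophage markers were detected and tested, and they had by far the largest summed level of the marker lists. The markers of adipocytes, which also carry Fabp4, Cd36, Plin2 and Lpl, were listed at or near 0, with Adipoq, Plin1, Cidec, Lep and Cfd at 0 in every sample and Retn at 0.23 TPM or less. A listed 0 need not mean that the RNA was absent: S100a9, singled out after its values were seen, was listed at 0 in all NC and LPS samples, where its usual partner S100a8 was at 75.94 to 128 TPM. Among endothelial markers, Gpihbp1, the anchor of lipoprotein lipase on capillaries, was listed at 0, and the sum of the 6 markers was at most 7.18 TPM. Neutrophil markers summed to 82.3 to 135 TPM in NC and to 52.6 to 55.9 TPM in C498. The sums of B cell, T cell, eosinophil and mast cell markers were at most 12.5, 2.83, 2.12 and 22.5 TPM, and that of markers of resident peritoneal macrophages was 18.9 to 33.9 TPM.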

How the data were processed

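RNA of 8 samples of mouse peritoneal macrophages was sequenced in pairs of reads on an Illumina NovaSeq. The tools the authors name are fastp for read filtering, HISAT2 for alignment, StringTie for assembly and RSEM for quantification. Versions, genome build and annotation are not given in the sources used here. The authors deposited the result as TPM, with 2 decimals. Mean columns per group were not used. TPM keeps no read number, so depth is unknown and the count test of the authors was not repeated.

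Values were transformed as log2(TPM + 1), and 12189 genes with a mean of at least 1 TPM were tested with limma 3.58.1 (R 4.3.3), with 1 mean per group over all 8 samples, a variance trend and Benjamini-Hochberg adjustment within each comparison. Thresholds were an adjusted p of 0.05 and, for DEGs, a fold of 2. Steps were tested on simulated data. An exact permutation test (two-sided) of 2 against 2 samples gives a p of 0.333 at best. Coordinates are those of GENCODE M21 (GRCm38) by Ensembl identifier, and near-identical transcripts were sought with blastn 2.17.0. Figures used matplotlib 3.10.9.

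All 10 members are named. Of 6 further pathway lists, up to 3 genes per list and direction with the largest change among those that passed are named, and for Pparg the 3 genes most like it. A gene that this rule would name is not reported here. Marker lists covered macrophages, resident peritoneal macrophages, adipocytes, endothelial and mesothelial cells, fibroblasts, neutrophils, B cells, T cells, eosinophils and mast cells. Members and lists were chosen with earlier results of these data known. Alternatives were a pseudocount of 0.1, no filter, a mean of at least 5 TPM, no fold threshold, a constant prior variance, quantile normalization or centring on the median gene, a block for the replicate number, fits restricted to the compared groups, and leaving out each sample.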

Additional observations from a re-analysis of the deposited data

Results flagged for a closer look

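As fitted here, the effect of LPS on Fabp4 differed between cells with and without C498. Most alternatives did not keep this call, among them centring on the median gene, no variance trend and no filter. The difference of the log2 effects was 1.08 (limma interaction, SE 0.129, adjusted p = 0.02518), and Fabp4 was lower in both LPS-treated samples than in both unstimulated samples with C498 as well as without it. Over 15 alternatives the adjusted p ranged from 0.01611 to 0.1565.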

How the results depend on the processing

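Of 711 alternative values of the 45 changes of the 9 tested members, 641 kept their direction and side of the threshold, 36 lost a call, 21 gained one and 13 changed sign. Calls kept under all 16 alternatives were those of Pparg, Rxra, Fabp4, Fabp5 and Plin2 in LPS vs NC, of Pparg, Fabp4 and Plin2 in C498+LPS vs C498, of Angptl4 in C498 vs NC, and of Angptl4 and Fabp4 in C498+LPS vs LPS.

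With samples centred on the median gene, C498 vs NC had 1 higher and 1 lower member, C498+LPS vs LPS 1 lower, C498+LPS vs C498 1 lower DEG and the interaction 0. With quantile normalization, C498 vs NC had 2 lower members and C498+LPS vs C498 1 higher member and 1 lower DEG. Only the groups compared, or no variance trend, left 1 higher member in C498 vs NC, and the interaction had 0 without a trend or without a filter. Without a fold threshold, DEGs numbered 6 lower in LPS vs NC, 2 higher in C498 vs NC, 4 higher in C498+LPS vs LPS and 5 lower in C498+LPS vs C498.

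Leaving out 1 sample each gave 1 to 3 higher and 0 to 2 lower members in C498 vs NC, 2 to 4 higher in C498+LPS vs LPS, 3 to 7 lower and 1 to 2 lower DEGs in C498+LPS vs C498, and 0 to 1 in the interaction. A left-out sample leaves 1 in its group, which is then assumed to vary like the other groups.

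Changes of sign, none of which passed, were few. With centring, the change was 0.0035 for Lpl in LPS vs NC and -0.026 for Cd36 and -0.0325 for Cpt1a in C498+LPS vs LPS, where Cpt1a was at -0.0009 with quantiles. Over the left-out samples, Lpl ranged from -0.46 to 0.13 in LPS vs NC, Cpt1a from -0.49 to 0.15 and Lpl from -0.36 to 0.22 in C498 vs NC, Cd36 from -0.10 to 0.20 and Cpt1a from -0.0205 to 0.11 in C498+LPS vs LPS, and Rxra from -0.10 to 0.36, Cpt1a from -0.11 to 0.53 and Lpl from -0.40 to 0.18 in the interaction. The causes were not tested.

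With the replicate number as a block, C498 vs NC had 3 higher members and 1 lower and C498+LPS vs C498 had 7 lower, and the other counts were unchanged. Gained calls were those of Rxra and Cd36 in C498 vs NC (adjusted p = 0.04662 and 0.04938) and of Cd36 and Cpt1a in C498+LPS vs C498 (adjusted p = 0.01408 and 0.0339). The deviations of same-numbered samples correlated positively in all 6 pairs of groups (0.0397 to 0.168, above 0.1 in the 3 with NC). The labels do not say what the number stands for, and pairing was not established.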
